A study of Homo sapiens with 12 samples.

Results

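The mitosis and G2/M genes described here are 58 genes that cells need between the end of DNA replication and the separation of the daughter cells. They were taken by symbol from a table of 78892 human genes, and all 58 were found and passed the filter on low counts. By role, 9 members are kinases, cyclins and phosphatases of entry into mitosis, 2 are transcription factors, 5 belong to the spindle checkpoint and 4 to the chromosomal passenger complex. A further 8 are centromere and kinetochore genes, 16 are spindle motors and microtubule proteins, 7 belong to condensin and chromosome structure, and 7 act in anaphase and cytokinesis. The members lie on 20 chromosomes.

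Poly(A) RNA was sequenced from OCI-Ly7, an established cell line grown from a patient's diffuse large B-cell lymphoma, in 4 groups of 3 libraries. The vehicle group received neither drug. The AZA group received 5-azacitidine, a cytidine analogue that traps DNA methyltransferases, in daily doses of 100 nM on days 0 to 4. The HDAC3i group received an inhibitor of the histone deacetylase HDAC3 at 15 µM on days 2 and 4, and the HDAC3i+AZA group received both drugs on these schedules. All cells were collected on day 5. The inhibitor's compound name is not given in the sources used here. All libraries come from 1 cell line, and nothing in the labels shows that replicates were grown as separate cultures, so p-values measure the spread between libraries, which may be technical.

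Cells enter mitosis when cyclin B and CDK1, switched on by CDC25 phosphatases and helped by the kinases PLK1 and AURKA, phosphorylate their targets. The checkpoint then holds back the anaphase-promoting complex until kinetochores have caught spindle microtubules, after which separase cuts cohesin and the cell divides. Many of these genes are transcribed late in the cell cycle, when NF-Y binds CCAAT boxes and the MuvB complex binds the cell cycle genes homology region (CHR) of their promoters. MuvB activates together with B-MYB (the product of MYBL2) and FOXM1, and represses as part of the DREAM complex in resting cells.

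The promoters of 4 members are printed here because each carries a CHR and CCAAT and because their genes behaved differently: CCNB2, PLK1 and ASPM fell with the inhibitor, and NCAPD2 did not. Each run is the 200 bases before the RefSeq start on GRCh38.p14, 5′ to 3′ on the gene's own strand. Capitals mark CHR (TTTGAA or TTCGAA) and CCAAT, read on either strand, so that TTCAAA and ATTGG are their reverse forms. CCNB2, a B-type cyclin, was read from the plus strand at chr15:59104946-59105145. PLK1, the polo-like kinase, was read from the plus strand at chr16:23678689-23678888. ASPM, which focuses spindle poles, was read from the minus strand at chr1:197146670-197146869. NCAPD2, a condensin subunit, was read from the plus strand at chr12:6493902-6494101.
CCNB2: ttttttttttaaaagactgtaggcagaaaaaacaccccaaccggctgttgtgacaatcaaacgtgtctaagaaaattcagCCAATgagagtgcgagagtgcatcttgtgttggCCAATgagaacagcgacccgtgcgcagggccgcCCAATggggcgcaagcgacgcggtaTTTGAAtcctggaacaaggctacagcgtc
PLK1: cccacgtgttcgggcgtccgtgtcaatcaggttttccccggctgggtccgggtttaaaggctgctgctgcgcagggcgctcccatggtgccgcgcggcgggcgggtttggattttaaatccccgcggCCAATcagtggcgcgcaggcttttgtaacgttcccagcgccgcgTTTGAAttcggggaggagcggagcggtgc
ASPM: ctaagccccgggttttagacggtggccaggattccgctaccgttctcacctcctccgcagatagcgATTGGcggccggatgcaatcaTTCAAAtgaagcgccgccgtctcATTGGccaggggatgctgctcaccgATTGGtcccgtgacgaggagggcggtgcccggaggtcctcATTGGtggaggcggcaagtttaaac
NCAPD2: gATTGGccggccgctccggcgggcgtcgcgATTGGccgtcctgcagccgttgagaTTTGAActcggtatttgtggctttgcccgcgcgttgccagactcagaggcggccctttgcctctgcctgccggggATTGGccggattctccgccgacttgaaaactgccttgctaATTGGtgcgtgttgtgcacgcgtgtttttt
In CCNB2 and PLK1 the CHR begins 29 bases before the start, in ASPM 113 and in NCAPD2 145.

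RefSeq windows of 300 bases (250 before and 50 after the start) were matched by symbol for 49 of the 58 members, with 61 promoters. AURKA, BIRC5, BUB3, FOXM1, KNL1, RACGAP1, TPX2, TTK and UBE2C were not matched. A CHR was found in 39 of the 61 windows, or 63.9%, beside 16.4% of all 35116 windows in the table. CCAAT on either strand was found in 67.2% of the members' windows and 34.6% of all windows, and at least 2 CCAAT in 39.3% and 10.8%. Both motifs stood together in 49.2% and 6.38%. The letters of the motifs can overlap only at their ends, and alternative starts of 1 gene can share sequence. A match describes the letters and not a bound site.

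**Figure D1:**
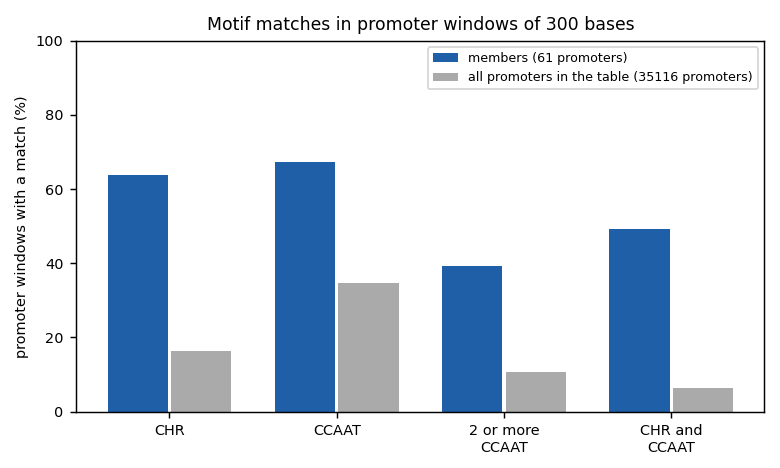
Share of promoter windows of 300 bases with a match to each motif on either strand, for 61 windows of 49 members (blue) and all 35116 windows of the table (grey). CHR stands in 63.9% of the members' windows and 16.4% of all, and CHR with CCAAT in 49.2% and 6.38%.

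The 12 libraries held 35947872 to 36337086 counts. Levels are given as CPM, counts scaled to a library total of 1000000, and 57 members lay above 20 CPM on average in vehicle. The B-cell marker MS4A1 was abundant (841 to 1508 CPM). Its group means were 871 in vehicle, 1449 in HDAC3i, 981 in AZA and 1435 CPM in HDAC3i+AZA. Mitochondrially encoded genes took 9.59 to 15.3% of counts, with the highest shares in HDAC3i+AZA replicate 3 and AZA replicate 1 (13.8%). AZA replicate 1 also stood apart in its counts (27.5 and 24.8 on a chi-square scale divided by its degrees of freedom when set beside its fellow libraries, which differed by 4.09 from each other). Pairs of HDAC3i+AZA libraries differed by 9.96 to 16.2 and pairs of vehicle or HDAC3i libraries by 3.51 to 6.74. Member counts of the comparisons that use AZA replicate 1 or HDAC3i+AZA replicate 3 are also given with both left out.

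In untreated cells the members differed widely in level. Per kilobase of exon, vehicle levels ran from 357 CPM for MYBL2, the B-MYB gene, through 179.6 for CDC20, the activator of the anaphase-promoting complex, 164 for its ubiquitin-conjugating enzyme UBE2C, 124 for cyclin B1 (CCNB1) and 108 for the spindle assembly factor TPX2. At the low end stood the kinetochore motor CENPE at 6.04, the kinesin KIF14 at 2.95 and PRC1 at 0.197 CPM per kilobase. PRC1, the crosslinker of midzone microtubules, cannot be read at its true level. In the table's annotation 66.9% of its exonic bases also belong to other genes, among them ENSG00000284946 on the same strand, and the counting left out reads that overlap more than 1 gene. In all, 22 members share some exonic bases with another gene, 7 of them over 10%, and the counting ignored strand.

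The HDAC3i group had less RNA from most of these genes than the vehicle group. The summed level of the 58 members was 10301 to 10610 CPM in vehicle and 8554 to 8591 CPM in HDAC3i, with no overlap. Members were tested with edgeR's quasi-likelihood test over 17869 genes with Benjamini-Hochberg adjustment. At an adjusted p under 0.05, 51 of 58 members were lower and 0 were higher. There were 0 higher also at an unadjusted p under 0.05, with DESeq2 and with limma voom. A filter of 5 CPM in 3 libraries gave 1 higher, in the condensin and chromosome structure group. Of all 17869 genes tested 24.9% were called lower and 26.4% higher, and of the 10014 genes with a mean of at least 5 CPM 40.4% were called lower. The members' median log2 fold change was −0.36, beside 0.00 for all genes and −0.10 for genes of at least 5 CPM. In 51 members (87.9%) every HDAC3i library lay below every vehicle library, a share that was not counted over all genes. The falls were of limited size: tested against a fold of 1.2, 27 members were lower. Of the 51 calls, 45 were kept in every other alternative run. Without vehicle replicate 1 BUB1 (adjusted p = 0.0816), BIRC5 (0.0606) and PRC1 (0.112) lost theirs, without vehicle replicate 3 BIRC5 (0.162) and PRC1 (0.119), and without HDAC3i replicate 1 MKI67 (0.0505) and PRC1 (0.0638). Without HDAC3i replicate 2 BIRC5 (0.0882), and without HDAC3i replicate 3 BUB1 (0.0546), BIRC5 (0.075) and PRC1 (0.143), did not pass. With an offset for GC content and exonic length, added after the data were seen, BUB1, NCAPG and SMC2 lost theirs. The libraries are bulk RNA, so fewer cells in G2 and mitosis and less of each RNA per cell cannot be told apart.

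Other measures moved in the same libraries. The mitochondrial share was 9.59 to 10.5% in vehicle and 12.14 to 13.02% in HDAC3i, with no overlap, and with mitochondrial genes left out 51 members were again lower and 0 higher. Of 9 B-cell markers 7 were called higher and 1, BLK, lower in HDAC3i against vehicle, beside 26.4% and 24.9% of all genes tested. The 9 summed to 3222 to 3323 CPM in vehicle, 4197 to 4244 in HDAC3i, 3384 to 3470 in AZA and 4224 to 4323 in HDAC3i+AZA. All 6 tested of 8 T and NK cell markers were called higher in HDAC3i against vehicle (26.4% of all genes tested were). The same 6 were called higher in HDAC3i+AZA against AZA (28.7% of all genes tested were). Their summed level was 88.3 to 96.8 CPM in vehicle, 247 to 255 in HDAC3i, 108 to 117 in AZA and 244 to 259 CPM in HDAC3i+AZA, nearly all of it TRAC, the T cell receptor alpha constant gene. CD3E went from 1.02 ± 0.170 (SD, n = 3) in vehicle to 6.497 ± 0.308 CPM in HDAC3i, and CD2 stayed at or under 0.0552 CPM in all libraries.

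Of 7 monocyte and granulocyte markers 4 were tested and 2 were called higher in HDAC3i against vehicle (26.4% of all genes tested were). The 7 summed to 0.859 to 2.21 CPM in vehicle, 3.15 to 3.73 in HDAC3i, 1.47 to 1.79 in AZA and 4.73 to 4.90 CPM in HDAC3i+AZA. Of 6 fibroblast and epithelial markers 2 were tested, COL1A1 and PDGFRB, and both were called higher in HDAC3i against vehicle, beside the same 26.4% of all genes. Their list summed to 0.110 to 0.388 CPM in vehicle, 6.22 to 7.73 in HDAC3i, 0.166 to 0.386 in AZA and 10.4 to 14.1 CPM in HDAC3i+AZA. CD3D, CD3G, LYZ, CSF1R, COL1A1 and PDGFRB were at most 0.222 CPM in any library without HDAC3i. They passed the filter on low counts only through groups given HDAC3i, so the direction of their calls was set by the filter. S100A8, HBB, COL1A2, KRT8 and KRT18 were at 0 in all libraries. The part of these markers in the members' falls was not tested.

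**Figure D2:**
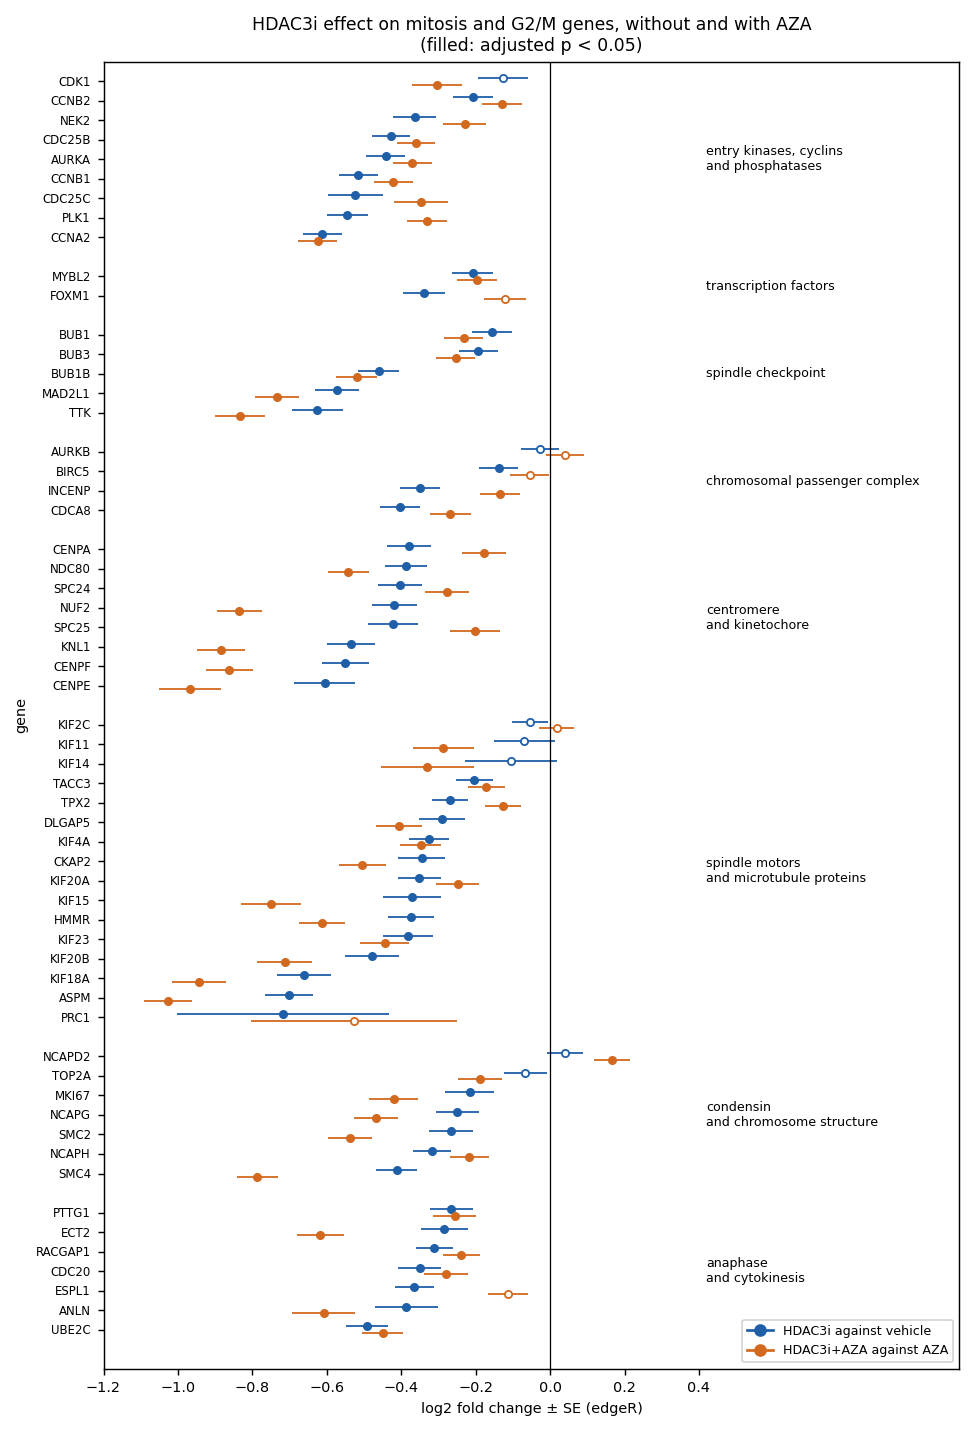
Log2 fold change (edgeR) ± SE of each of the 58 members, grouped by role, for HDAC3i against vehicle (blue) and HDAC3i+AZA against AZA (orange). Filled points mark an adjusted p under 0.05. SE is the absolute change divided by the square root of the edgeR F statistic. Most points lie left of 0 in both comparisons, with medians of −0.36 and −0.35. NCAPD2 is the 1 member to the right of 0 in both, and it is called higher in HDAC3i+AZA against AZA only.

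Among the entry genes 8 of 9 fell with HDAC3i, with a median log2 fold change of −0.44. Cyclin B1 (CCNB1, ENSG00000134057, chromosome 5, 69167135 to 69178245, GRCh38) read 313, 301 and 294 CPM in the vehicle libraries and 219.7, 208 and 209 CPM in the HDAC3i libraries. CCNA2, the cyclin of S phase and G2, read 285, 279 and 274 CPM in vehicle and 188, 179.8 and 181 CPM in HDAC3i. In both, the lowest vehicle library lay far above the highest HDAC3i library. CCNB1 fell by 0.52 on the log2 scale (SE 0.05, edgeR adjusted p = 5.50e-09) and CCNA2 by 0.61 (SE 0.05, adjusted p = 1.94e-10). CDK1, the kinase both cyclins activate, did not pass the test: it read 230.4, 185 and 201 CPM in vehicle and 197, 189 and 181 CPM in HDAC3i, with overlapping libraries (−0.13 ± 0.07 SE, adjusted p = 0.121). The other 6 entry genes, CCNB2, NEK2, CDC25B, AURKA, CDC25C and PLK1, had log2 fold changes of −0.21 to −0.54.

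Both transcription factors of the programme fell. MYBL2 read 1032, 926 and 1016 CPM in vehicle and 873, 849 and 862 CPM in HDAC3i (−0.21 ± 0.05 SE, edgeR adjusted p = 0.00221). FOXM1 read 203, 216 and 202 CPM in vehicle and 164, 163 and 165 CPM in HDAC3i (−0.34 ± 0.06 SE, adjusted p = 1.26e-05). In each, the groups did not overlap.

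All 5 spindle checkpoint genes fell, by a wide range of sizes. TTK, the kinase that starts checkpoint signalling, changed by −0.63, MAD2L1, which binds and holds CDC20, by −0.57 and BUB1B by −0.46. The 2 of highest level changed least. BUB3 read 407, 398 and 400.4 CPM in vehicle and 346, 362 and 349.8 CPM in HDAC3i (−0.19 ± 0.05 SE, edgeR adjusted p = 0.00290). The kinase gene BUB1 read 275, 268 and 252 and 239, 241 and 236 CPM (−0.16 ± 0.05 SE, adjusted p = 0.0156).

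The chromosomal passenger complex, which corrects wrong attachments of kinetochores, was uneven. INCENP (−0.35), CDCA8 (−0.40) and BIRC5 fell, and the catalytic subunit AURKB did not pass the test. AURKB read 189, 194 and 192 CPM in vehicle and 187, 180.4 and 198 CPM in HDAC3i, with overlapping libraries (−0.03 ± 0.05 SE, edgeR adjusted p = 0.701). BIRC5, the survivin gene, read 305, 289 and 317 CPM in vehicle and 283, 273 and 275 CPM in HDAC3i (−0.14 ± 0.05 SE, adjusted p = 0.0260). Its groups stood apart by a small gap only.

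All 8 centromere and kinetochore genes fell, with a median of −0.42. CENPF, a large kinetochore protein made in G2, read 216, 213 and 201 CPM in vehicle and 135, 149 and 148 CPM in HDAC3i (−0.55 ± 0.06 SE, edgeR adjusted p = 3.78e-08). CENPE, the kinesin that carries chromosomes to the spindle equator, read 62.9, 60.8 and 56.1 and 38.09, 41.8 and 38.7 CPM (−0.61 ± 0.08 SE, adjusted p = 7.55e-07). NDC80 and NUF2 form the arm of the NDC80 complex that grips microtubules, and they moved by nearly the same amount. NDC80 read 104, 99.8 and 92.8 CPM in vehicle and 77.2, 79.6 and 71.1 CPM in HDAC3i (−0.39), and NUF2 78.7, 76.4 and 76.8 and 58.1, 58.6 and 57.4 CPM (−0.42). KNL1, the scaffold for the BUB proteins, read 67.6, 73.0 and 64.4 and 48.6, 46.4 and 46.8 CPM (−0.54). CENPA, SPC24 and SPC25 had log2 fold changes between −0.42 and −0.38.

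Of the 16 spindle motors and microtubule proteins 13 fell, with the largest changes of all members. ASPM read 99.3, 96.1 and 86.3 CPM in vehicle and 58.6, 57.9 and 57.1 CPM in HDAC3i, so that it fell by 38.5% (−0.70 ± 0.06 SE, edgeR adjusted p = 5.94e-10). KIF18A, a kinesin that damps chromosome movements, read 51.8, 51.3 and 46.4 CPM in vehicle and 31.5, 31.6 and 31.6 CPM in HDAC3i, and fell by 36.8% (−0.66 ± 0.07 SE, adjusted p = 1.86e-08). The most abundant 2 genes of the group changed less. TPX2 read 391, 399.7 and 377 and 333, 329 and 309.5 CPM (−0.27), and TACC3, which stabilises spindle fibres, 389, 368 and 386 and 332, 333 and 331 CPM (−0.20). KIF2C, a kinesin that takes microtubules apart, did not pass the test at 199, 199 and 191 CPM in vehicle and 193, 188 and 188 CPM in HDAC3i (−0.05, adjusted p = 0.361). KIF11 (−0.07) and KIF14 (−0.11) did not pass either. PRC1 read 1.22, 0.831 and 1.22 CPM in vehicle and 0.692, 0.773 and 0.526 CPM in HDAC3i (−0.72 ± 0.28 SE, adjusted p = 0.0369), and its call is uncertain at so few counts. ENSG00000284946, which takes part of its exons, went from 10.4 ± 1.19 (SD, n = 3) to 7.80 ± 0.381 CPM (−0.42, adjusted p = 0.00169).

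In the condensin and chromosome structure group 5 of 7 genes fell, and the 7 did not move as a block. SMC4, the ATPase subunit of condensin, read 234, 237 and 219 CPM in vehicle and 173, 167 and 180 CPM in HDAC3i (−0.41 ± 0.06 SE, edgeR adjusted p = 6.68e-07). NCAPD2, a regulatory subunit of condensin I, read 283, 287 and 273 CPM in vehicle and 290.2, 289 and 290 CPM in HDAC3i and did not pass (0.04 ± 0.05 SE, adjusted p = 0.519). NCAPG (−0.25), SMC2 (−0.27) and NCAPH (−0.32), subunits of the same complex, fell. TOP2A, the topoisomerase that untangles chromosomes, overlapped between the groups at 438, 425 and 409.6 and 398, 399.9 and 421 CPM (−0.07, adjusted p = 0.370). MKI67, the Ki-67 gene, read 456, 461 and 452 CPM in vehicle and 373, 393 and 416 CPM in HDAC3i (−0.22 ± 0.07 SE, adjusted p = 0.00746). NCAPG, NCAPD2 and SMC4 share 33.7%, 22.1% and 22.0% of their exonic bases with genes on the opposite strand.

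All 7 anaphase and cytokinesis genes fell. CDC20 read 365, 346 and 373 CPM in vehicle and 289, 286 and 278 CPM in HDAC3i (−0.35 ± 0.06 SE, edgeR adjusted p = 1.40e-05). UBE2C read 212, 208 and 213 CPM in vehicle and 159, 142 and 151 CPM in HDAC3i (−0.49 ± 0.06 SE, adjusted p = 3.77e-08). Vehicle and HDAC3i libraries stood well apart in both. Separase (ESPL1), securin (PTTG1), ANLN, ECT2 and RACGAP1 had log2 fold changes between −0.39 and −0.27.

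The members' medians were also read by promoter letters. The median log2 fold change in HDAC3i against vehicle was −0.38 for the 36 matched members with a CHR and −0.35 for the 13 without. For the 23 members with at least 2 CCAAT it was −0.35 and for the 26 with fewer −0.38. In HDAC3i+AZA against AZA the same medians were −0.41 with and −0.25 without a CHR, and −0.28 with at least 2 CCAAT and −0.49 with fewer. These differences were not tested. NCAPD2 holds 1 CHR and 4 CCAAT in its printed run, as ASPM does, and its level was not lower. MYBL2, whose window holds neither motif, fell.

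The HDAC3i effect was also measured among cells that received AZA, between groups of libraries that HDAC3i against vehicle does not compare. All 12 libraries were fitted together with a shared estimate of the spread, so the calls of these comparisons are not fully independent. In HDAC3i+AZA against AZA 51 members were lower and 1 was higher in the edgeR test, beside 25.1% lower and 28.7% higher of all genes tested and 39.7% lower of genes of at least 5 CPM. The members' median log2 fold change was −0.35, and 51 had every HDAC3i+AZA library below every AZA library. Of the members 47 were lower in both comparisons and 55 were below 0 in both. The shares of all genes that separate or fall in these ways were not counted. Across the 58 members the 2 effects had a Pearson r of 0.72 and a Spearman rho of 0.68, given as a description, since genes are not independent replicates. The fall was larger without AZA in 28 members. With AZA replicate 1 and HDAC3i+AZA replicate 3 left out, 47 members were lower and 1 higher.

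Over the 57 members other than PRC1 the change in HDAC3i+AZA against AZA followed the GC content of the transcripts (r = 0.67 and rho = 0.70, across genes), with a median of −0.61 for the 29 members of at most 43.4% GC and −0.24 for the other 28. In HDAC3i against vehicle r was 0.24 and these medians were −0.39 and −0.33. The largest falls in HDAC3i+AZA against AZA were those of ASPM, CENPE and KIF18A. ASPM read 98.6, 109 and 97.0 CPM in AZA and 48.2, 53.4 and 46.6 CPM in HDAC3i+AZA, so that it fell by 50.9% (−1.03 ± 0.06 SE, edgeR adjusted p = 2.82e-13). CENPE read 68.2, 62.4 and 57.8 CPM in AZA and 27.7, 35.2 and 32.8 CPM in HDAC3i+AZA (−0.97 ± 0.08 SE, adjusted p = 2.00e-10). KIF18A read 57.3, 58.9 and 56.5 and 27.3, 33.6 and 28.2 CPM (−0.94 ± 0.07 SE, adjusted p = 1.93e-11). None of the 3 had overlapping libraries. NCAPD2 was the member called higher, at 278, 272 and 270.1 CPM in AZA and 317, 293 and 306 CPM in HDAC3i+AZA (0.17 ± 0.05 SE, adjusted p = 0.00479). AURKB (179, 179.5 and 193 against 200.2, 182 and 182 CPM, 0.04) and KIF2C (193, 202 and 199.7 against 202, 192 and 204 CPM, 0.02) did not pass, as in the comparison without AZA. 

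Calls that were made on 1 side only do not show a difference between the sides. FOXM1, ESPL1, BIRC5 and PRC1 were called lower without AZA and not with it, and CDK1, KIF11, KIF14 and TOP2A with AZA and not without it. In none of these 8 did the interaction pass, with FOXM1 at 0.22 (edgeR adjusted p = 0.220), ESPL1 at 0.25 (adjusted p = 0.113) and CDK1 at −0.18 (adjusted p = 0.446). Without AZA replicate 2 or HDAC3i+AZA replicate 1 the call of KIF11 in HDAC3i+AZA against AZA was lost (adjusted p = 0.0581 and 0.0531), as was that of TOP2A without HDAC3i+AZA replicate 1 (0.0894). KIF14 lost its call without AZA replicates 2 or 3 or HDAC3i+AZA replicates 1 or 3, with adjusted p from 0.113 to 0.161. With the offset for GC content and exonic length, some log2 fold changes in HDAC3i+AZA against AZA turned to above 0. They were 0.0315 for CDK1, 0.030 for SPC25, 0.0206 for KIF11 and 0.12 for TOP2A. CDK1, SPC25 and KIF11 lost their calls with this offset, as did BUB1 and KIF14, and TOP2A was called higher.

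**Figure D3:**
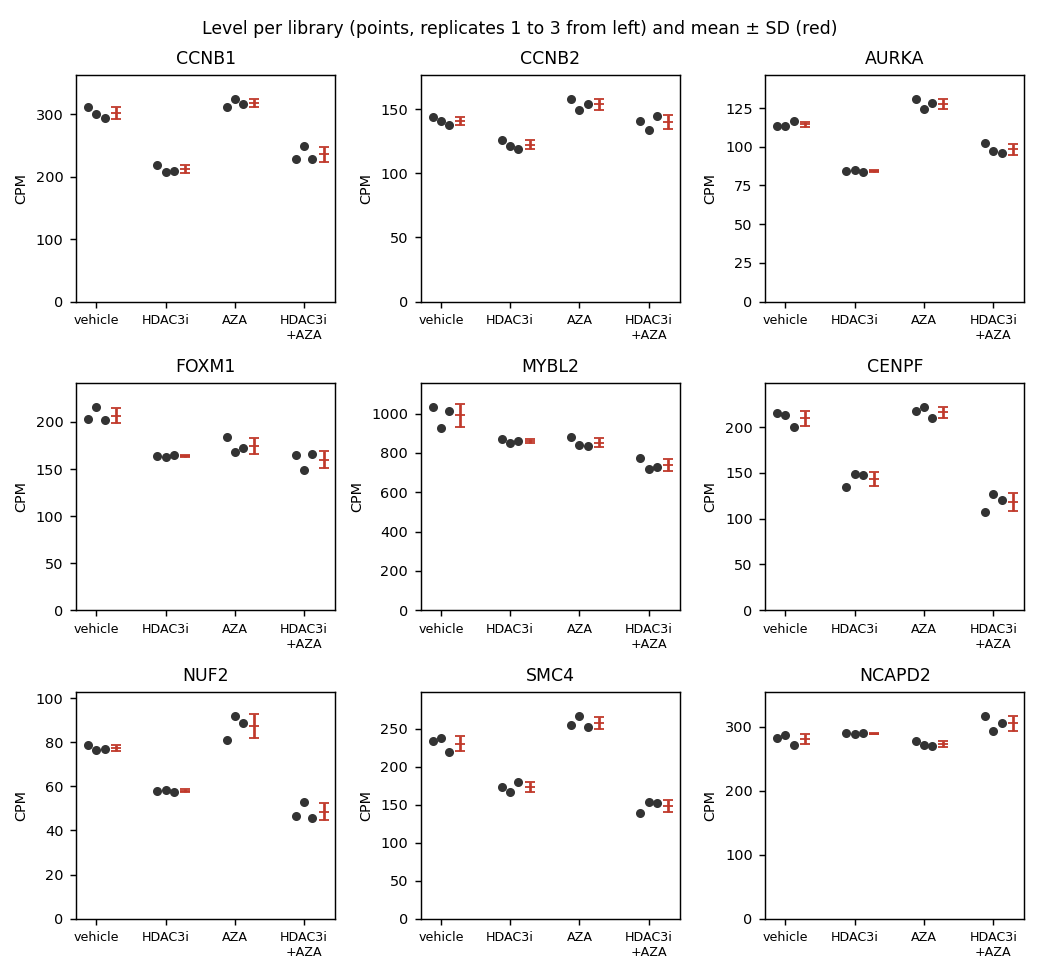
Level in CPM of 9 members in each library (black points, replicates 1 to 3 from left to right) with the group mean ± SD (red), on axes that start at 0. CCNB1 and CENPF sit lower in both groups given HDAC3i, NCAPD2 does not, and NUF2 and SMC4 are highest in AZA and lowest in HDAC3i+AZA.

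Both drugs together were compared with vehicle, a comparison that shares its vehicle libraries with HDAC3i against vehicle and its HDAC3i+AZA libraries with the one above. The edgeR test called 48 members lower and 1, NCAPD2, higher, beside 27.5% lower and 29.6% higher of all genes tested and 43.4% lower of genes of at least 5 CPM. The members' median was −0.33, and their summed level in HDAC3i+AZA was 8412 to 8673 CPM. With AZA replicate 1 and HDAC3i+AZA replicate 3 left out, 44 were lower and 1 higher. The NCAPD2 call (0.13 ± 0.05 SE, adjusted p = 0.0289) was lost without vehicle replicate 1, 2 or 3 (0.0656, 0.0575 and 0.0913) and without HDAC3i+AZA replicate 1 or 3 (0.0698 and 0.0786), with no filter on low counts (0.104) and with the offset for GC and length (0.0828). ASPM (−0.92), CENPE (−0.90) and CENPF (−0.82) had the largest falls. CDK1 (0.00), CCNB2 (−0.01) and BIRC5 (0.05) lay near the vehicle level. BIRC5 read 316, 316 and 306 CPM in HDAC3i+AZA, within the range of its vehicle libraries.

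AZA by itself moved few members. The edgeR test called 5 members higher and 3 lower, or 8.62% and 5.17% of the 58, beside 4.31% and 4.75% of all genes tested. The summed level was 10503 to 10829 CPM, which overlaps the vehicle range. HMMR, a protein of spindle poles, read 136, 131 and 127 CPM in vehicle and 173, 169 and 163 CPM in AZA (0.35 ± 0.06 SE, adjusted p = 3.14e-04). CDK1 read 230.4, 185 and 201 and 238, 271 and 256 CPM (0.31 ± 0.07 SE, adjusted p = 0.00357), with a high first library in vehicle. ECT2, the exchange factor that starts the cleavage furrow, read 79.1, 79.6 and 77.3 CPM in vehicle and 91.3, 99.4 and 94.2 CPM in AZA (0.27 ± 0.06 SE, adjusted p = 0.00588). These 3 had no AZA library within the vehicle range. NCAPG rose from 111, 106 and 106 to 115, 134 and 133 CPM (0.24, adjusted p = 0.00861), and TTK by 0.21 (adjusted p = 0.0455).

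The 3 members lower in AZA included both transcription factors. FOXM1 read 184, 168 and 173 CPM in AZA, below its vehicle libraries (−0.24 ± 0.06 SE, edgeR adjusted p = 0.00523). MYBL2 read 882, 839.6 and 838 CPM in AZA, again below vehicle (−0.22 ± 0.05 SE, adjusted p = 0.00937), and INCENP changed by −0.20 (adjusted p = 0.0178). HMMR, CDK1 and ECT2 kept their calls in each alternative analysis except the test against a fold of 1.2. Without AZA replicate 2 FOXM1 (adjusted p = 0.052), MYBL2 (0.0596), NCAPG (0.0582), INCENP (0.0894) and TTK (0.204) did not pass, and this leaves 0 members lower and 3 higher. MYBL2, INCENP and TTK also lost their calls without other libraries, with adjusted p from 0.0527 for TTK without AZA replicate 3 to 0.152 for TTK without vehicle replicate 2. Over the 57 members other than PRC1, the log2 change in AZA ran against the GC content of the transcripts (r = −0.67, across genes), and the libraries themselves differed in GC slope over all genes (−0.05 to −0.11 log2 per 10% GC in AZA and −0.00475 to −0.06 in vehicle). With an offset for GC and length 5 members were higher and 4 lower. With AZA replicate 1 and HDAC3i+AZA replicate 3 left out the counts were again 5 and 4, and TTK did not pass (adjusted p = 0.0685).

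AZA added to HDAC3i moved members both ways. In HDAC3i+AZA against HDAC3i the edgeR test called 7 members higher and 8 lower, beside 4.51% and 2.83% of all genes tested, and the median was 0.02. Of the 9 entry genes 5 were higher, with a group median of 0.20. Of the 8 centromere and kinetochore genes 4 were lower, with a group median of −0.14. The changes were small, from −0.31 to 0.23 among the members called.

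AURKA read 84.6, 85.3 and 83.7 CPM in HDAC3i and 102, 97.2 and 95.7 CPM in HDAC3i+AZA, with no overlap (0.23 ± 0.05 SE, edgeR adjusted p = 0.00673). CDC25B, the phosphatase that first activates CDK1, read 153, 161 and 153 and 192, 172 and 178 CPM (0.22 ± 0.05 SE, adjusted p = 0.00787). NEK2, a centrosome kinase, read 64.6, 67.5 and 67.1 and 73.4, 81.9 and 77.4 CPM (0.23 ± 0.06 SE, adjusted p = 0.0118). All 3 remained below their vehicle libraries, which read 113, 113.7 and 116, 202, 211 and 213 and 82.1, 88.1 and 85.2 CPM. CCNB2 (0.20), PLK1 (0.19), KIF20A (0.20) and BIRC5 (0.18) also rose. CCNB1 read 229, 250 and 228 CPM in HDAC3i+AZA, above each HDAC3i library, without passing (0.16, adjusted p = 0.0595).

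Among the lower members, CENPF read 107, 127 and 121 CPM in HDAC3i+AZA, below its HDAC3i libraries (−0.27 ± 0.06 SE, edgeR adjusted p = 0.00779). KNL1 read 36.2, 39.9 and 41.3 CPM (−0.26 ± 0.06 SE, adjusted p = 0.0118) and NUF2 46.8, 53.1 and 45.9 CPM (−0.25 ± 0.06 SE, adjusted p = 0.0124). The 3 lay below every HDAC3i library. CENPE (−0.30), KIF15 (−0.31), ASPM (−0.22), SMC4 (−0.21) and MYBL2 (−0.21) were lower too. MYBL2, at 776, 717 and 730.2 CPM, was also called lower in each of the comparisons named above. Its call in HDAC3i+AZA against HDAC3i was lost without HDAC3i replicate 1 or 3 (adjusted p = 0.0839 and 0.0702), and that in HDAC3i+AZA against AZA with AZA replicate 1 and HDAC3i+AZA replicate 3 left out (0.0655).

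These counts move with single libraries: of the 15 calls 14 were lost when some library was left out. Without HDAC3i+AZA replicate 1 the count of lower members was 1, and without HDAC3i+AZA replicate 2 it was 13. Without HDAC3i replicates 1, 2 or 3 in turn, 2, 4 and 2 members were lower and 3, 4 and 2 higher. Without HDAC3i+AZA replicate 1 CENPF (adjusted p = 0.0805), KNL1 (0.098), NUF2 (0.0848), CENPE (0.227), SMC4 (0.139), ASPM (0.166) and KIF15 (0.151) did not pass. CDC25B did not pass without HDAC3i replicate 3 (0.0585), nor NEK2 without HDAC3i replicate 1 (0.0727). HDAC3i+AZA replicate 1 also had the steepest slope on GC content over the whole table (0.16 log2 per 10% GC, beside 0.02 to 0.03 in HDAC3i libraries). Over the 57 members other than PRC1 the change had r = 0.42 with GC content and −0.57 with log2 exonic length, across genes that share these libraries. With the offset for GC and length 3 members were lower and 8 higher, the entry group had 6 higher calls, and the centromere and kinetochore group had 1 lower and 1 higher. AURKA kept its call in every alternative but the fold threshold. With AZA replicate 1 and HDAC3i+AZA replicate 3 left out, 8 members were lower and 7 higher.

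**Figure D4:**
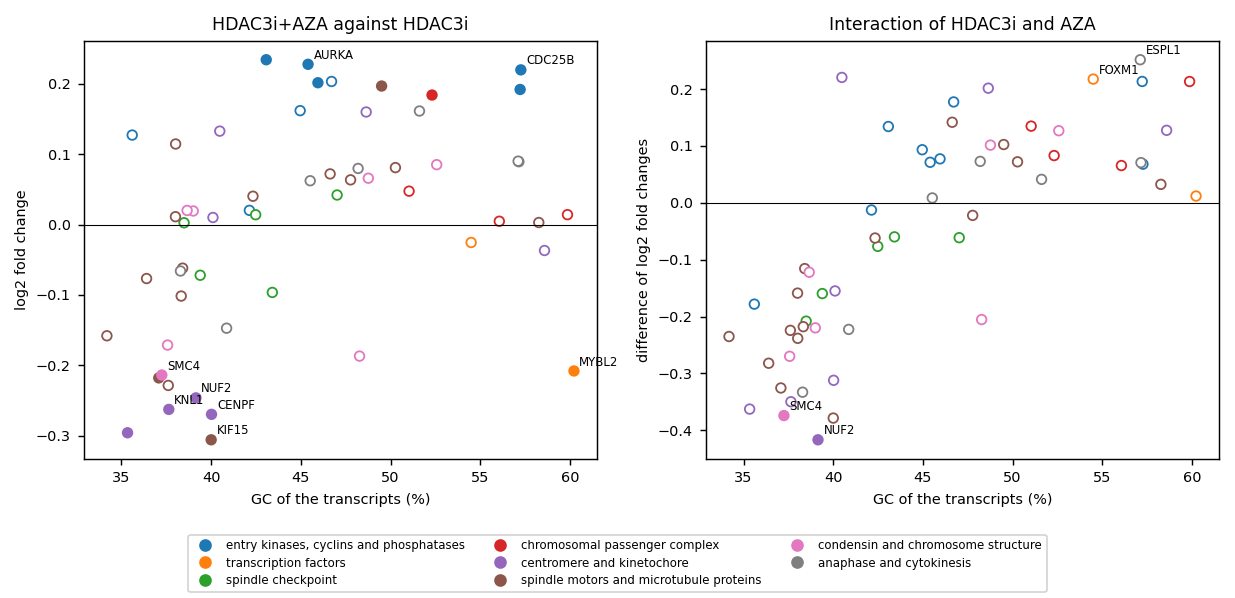
Log2 fold change in HDAC3i+AZA against HDAC3i (left) and the interaction, the difference of 2 log2 fold changes (right), plotted against the GC content of each member's transcripts for 57 members, coloured by role, with filled points for an adjusted p under 0.05. Lower members lie mostly at low GC, and r is 0.42 on the left and 0.77 on the right.

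Whether the AZA effect differs with HDAC3i was tested by the interaction, which is the log2 change with AZA on top of HDAC3i minus that with AZA alone. The edgeR test called 2 members negative and 0 positive, beside 0.453% and 0.263% of all genes tested, and the median was −0.02. The members called were NUF2 and SMC4, at adjusted p = 0.0176 and 0.0228. At an unadjusted p under 0.05 the counts were 15 negative and 7 positive, and DESeq2 called 8 negative and 0 positive and limma voom 2 and 0. The shares of all genes under these 3 settings were not counted, so these counts cannot be set against the rest of the genes. With AZA replicate 1 and HDAC3i+AZA replicate 3 left out 2 were negative and 0 positive.

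NUF2 (ENSG00000143228, chromosome 1, 163266576 to 163355764) read 78.7, 76.4 and 76.8 CPM in vehicle, 81.1, 91.9 and 88.9 in AZA, 58.1, 58.6 and 57.4 in HDAC3i and 46.8, 53.1 and 45.9 in HDAC3i+AZA. AZA libraries lay above vehicle and HDAC3i+AZA libraries below HDAC3i, a difference of −0.42 ± 0.09 SE on the log2 scale. SMC4 (ENSG00000113810, chromosome 3, 160399274 to 160434954) read 234, 237 and 219 CPM in vehicle, 254, 267 and 251 in AZA, 173, 167 and 180 in HDAC3i and 139, 153 and 152 in HDAC3i+AZA, a difference of −0.37 ± 0.08 SE. Across 57 members the interaction followed GC content with r = 0.77. The 29 members of at most 43.4% GC had a median interaction of −0.22 and the other 28 of 0.08. Both calls are near the threshold, and in each of the 4 groups some single library left out lost them. Without HDAC3i+AZA replicate 1 the edgeR adjusted p was 0.0783 for NUF2 and 0.0816 for SMC4. The count of members called lower ran from 0 to 14 as single libraries were left out. With the offset for GC and length NUF2 stayed called at −0.28 (adjusted p = 0.0428) and SMC4 did not at −0.21 (adjusted p = 0.149).

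Genes outside the 58 were read from 2 lists. Of 81 tested of 82 other mitotic genes (subunits of the anaphase-promoting complex, condensin II, kinetochore, spindle and cytokinesis proteins), 60 were lower and 2 higher in HDAC3i against vehicle, with a median of −0.26. These are 74.1% and 2.47% of the genes tested, beside 24.9% and 26.4% of all genes. The 3 of smallest adjusted p were the microtubule-binding protein gene GTSE1, the spindle protein gene SPAG5 and the checkpoint ATPase gene TRIP13, at −0.63, −0.60 and −0.60. In HDAC3i+AZA against AZA 63 were lower and 3 higher (77.8% and 3.70%, beside 25.1% and 28.7% of all genes), with a median of −0.31. In AZA against vehicle 5 were higher, or 6.17% beside 4.31% of all genes.

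Of 33 regulators of the G2/M programme 18 were lower and 5 higher in HDAC3i against vehicle, with a median of −0.18. These are 54.5% and 15.2%, beside 24.9% and 26.4% of all genes and 40.4% lower of genes of at least 5 CPM. CDKN1A, which encodes an inhibitor of cyclin-dependent kinases, read 1.19, 1.03 and 0.776 CPM in vehicle, 2.40, 3.19 and 3.34 in AZA, 30.5, 34.6 and 36.8 in HDAC3i and 67.4, 62.8 and 59.7 in HDAC3i+AZA. It rose in HDAC3i against vehicle (5.08, edgeR adjusted p = 7.00e-22), and HDAC3i+AZA lay above HDAC3i (0.91 ± 0.08 SE, adjusted p = 1.05e-07). MYBL1, the A-MYB gene, changed by −0.99 and CDKN2D, an inhibitor of the cyclin D kinases, by 0.78. These levels moved in the same libraries as the members, and their part in the members' falls was not tested.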

How the data were processed

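The authors deposited expected counts per gene. Exons of release 114 genes were counted with featureCounts 2.1.1, per the file headers, ignoring strand, giving multi-mapping reads as fractions and dropping reads over more than 1 gene. Per the submitters' processing notes, cutadapt 5.1, STAR 2.7.11b and Subread 2.1.2 were used on GRCh38. The unit counted, reads or pairs, is not given in the sources used here. Besides the 12 libraries analysed, 4 others named in the header were not used here.

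Counts were rounded to whole numbers. In R 4.3.3, filterByExpr of edgeR 4.0.16 kept 17869 of 78892 genes (99.93% of counts), libraries were scaled with TMM, and 1 mean per group was fitted over the 12 libraries with the quasi-likelihood F-test, two-sided, adjusted by Benjamini-Hochberg over all genes tested and called at an adjusted p under 0.05. CPM is counts scaled to a library total of 1000000, with no TMM factor. The biological coefficient of variation was 6.05%. SE of a log2 fold change is its absolute value divided by the square root of the F statistic. It is an approximation that edgeR itself does not report, and it can be too small for large changes at low counts. Alternatives were DESeq2 1.42.0, limma 3.58.1 voom, other scalings and filters, only the 2 groups compared, replicate blocks, a fold threshold of 1.2, mitochondrial genes left out, single libraries left out and, added after the data were seen, an offset for GC content (GENCODE 29) and exonic length. The fits were tested on simulated data. Figures were drawn with matplotlib 3.10.9. Reads from PCR that carry no molecular identifiers do not count molecules one by one.

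The members, role groups and lists were chosen with earlier results of these data known. Values in every library are given for the 2 members of highest level in each role group, up to 6 members called in each comparison that tests AZA or the interaction, members called against the main direction, and the 3 largest falls and rises in each comparison that adds HDAC3i.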

Additional observations from a re-analysis of the deposited data

Results flagged for a closer look

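In 2 members the AZA effect differed between cells with and without HDAC3i by the interaction test of edgeR, which adjusts over all 17869 genes. For NUF2 the log2 change with AZA was 0.17 alone and −0.25 on top of HDAC3i, a difference of −0.42 ± 0.09 SE (adjusted p = 0.0176). For SMC4 it was 0.16 and −0.21, a difference of −0.37 ± 0.08 SE (adjusted p = 0.0228). The changes with AZA alone did not pass in either gene, and those on top of HDAC3i did. NUF2 lost its interaction call without vehicle replicate 2 or 3, any HDAC3i library, AZA replicate 2 or 3, or HDAC3i+AZA replicate 1 or 3. SMC4 lost its call without vehicle or HDAC3i replicate 1 or 3, AZA replicate 2 or HDAC3i+AZA replicate 1. The edgeR adjusted p was then 0.0502 to 0.0783 for NUF2 and 0.0572 to 0.110 for SMC4. Both genes have GC-poor transcripts (39.2% and 37.3% GC), and the slope of all genes on GC content was −0.05 to −0.11 log2 per 10% GC in AZA and 0.03 to 0.16 in HDAC3i+AZA libraries. Its part in the difference was not tested beyond the offset for GC and length.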

How the results depend on the processing

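The count of members lower with HDAC3i, without and with AZA, stayed within 1.5 times under the alternatives run except the fold threshold of 1.2, which gave 27 (HDAC3i against vehicle), 23 (HDAC3i+AZA against vehicle) and 27 (HDAC3i+AZA against AZA), and 0 for each count of lower or higher members in the other comparisons, and of higher members in all. Members called higher moved to 1 in HDAC3i against vehicle under a filter of 5 CPM in 3 libraries. In AZA against vehicle they were 8 with DESeq2 size factors, 12 under that filter, 11 with DESeq2 and 10 with only the 2 groups fitted. Single libraries left out gave 0 to 5 members lower and 3 to 13 higher there. In HDAC3i+AZA against vehicle members called higher were 0 with no filter, 3 under the stricter filter, 2 with the GC and length offset and 0 to 1 without single libraries. The offset gave 2 higher in HDAC3i+AZA against AZA and 3 lower in HDAC3i+AZA against HDAC3i, where single libraries left out gave 1 to 13 lower and 2 to 8 higher. For the interaction members called lower were 8 with no filter, 5 under the stricter filter, 8 with DESeq2, 1 with the offset and 0 to 14 without single libraries, and members called higher were 0 to 1 without single libraries. The cause of these moves was not tested, and the shares of all genes called under these alternatives were not counted.

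With the offset the log2 fold change turned to above 0 in HDAC3i+AZA against vehicle for BUB1 (0.0232) and TOP2A (0.21). In HDAC3i+AZA against AZA it did so for CDK1 (0.0315), SPC25 (0.030), KIF11 (0.0206) and TOP2A (0.12). The members' median with HDAC3i against vehicle was −0.29 under the stricter filter.

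No pairing of samples by replicate number was visible in the correlation of deviations from group means, which cannot exclude one. Over 18 same-numbered pairs this correlation was −0.06 to 0.07 by title number. Over 13 pairs by library name it was −0.03 to 0.07, with 0 pairs over 0.1 in either. A replicate block by title gave 50 members lower in HDAC3i against vehicle and 2 lower for the interaction. A replicate block by library name gave 4 lower and 1 higher for the interaction. At these depths the lowest count of a member other than PRC1 in any library was 487.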

Other observations

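A few related genes rose where the members fell, and they are named here after their values were seen. Of the other mitotic genes, the 2 called higher in HDAC3i against vehicle by edgeR were subunits of the anaphase-promoting complex: ANAPC11, its RING subunit, at 0.34 (adjusted p = 4.65e-04) and ANAPC16 at 0.26 (adjusted p = 1.45e-04). Some other subunits of the same complex fell, among them ANAPC1 at −0.40 and ANAPC4 at −0.52. Of the regulators of the G2/M programme, the 5 called higher were the kinase inhibitor genes CDKN1A (5.08), CDKN2D (0.78) and CDKN1B (0.24), the transcription factor gene MYB (0.38) and the checkpoint kinase gene CHEK2 (0.20). Within the MYB family MYBL1 (−0.99) and the member MYBL2 (−0.21) fell. In HDAC3i+AZA against AZA MYB read 0.59, MYBL1 −1.37 and CHEK2 0.29.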
